A study of Mus musculus with 6 samples.

Results

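The 9 cyclin genes described here are those whose proteins drive the cell cycle: Ccnd1, Ccnd2, Ccnd3, Ccne1, Ccne2, Ccna2, Ccnb1, Ccnb2 and Ccnf. They were taken by gene symbol from a table of 22838 genes, each symbol matched 1 gene, and all 9 passed the filter on low values. Transcripts were measured by RNA sequencing of marrow from the tibia and femur of Cbx2-/- mice and wild-type mice, 3 animals of each. Both groups were 3 weeks old and on a 129/C57BL/6 background. Cbx2 is a Polycomb group gene, and its protein is a chromobox subunit of Polycomb repressive complex 1, a silencer of developmental genes. The labels give the genotype as Cbx2-/- and do not describe the allele or the cells in which it was lost. Per the labels, Cbx2-/- mice weighed 4.0 g on average and wild-type mice 12.3 g, so genotype and body size cannot be told apart. The series asks how Cbx2 acts on bone-forming and fat-forming cells, and the comparison made here is of the cyclins between the genotypes.

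Cyclins are the regulatory partners of cyclin-dependent kinases, and each type is made and destroyed at its own point of the cell cycle. D-type cyclins answer growth signals in G1 with Cdk4 and Cdk6, E-type cyclins with Cdk2 start DNA replication, cyclin A2 acts through S phase and G2, and B-type cyclins with Cdk1 drive entry into mitosis. Cyclin F is not a kinase partner but the substrate-binding part of an SCF ubiquitin ligase in G2. In marrow the dividing cells are mainly erythroid, lymphoid and granulocytic precursors, and red cell and B cell precursors are known for dividing rapidly. The marrow was measured in bulk, so fewer dividing cells and less cyclin RNA per cell cannot be told apart.

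The values are FPKM, that is fragment counts divided by transcript length and by the mapped total, and differences are given on the scale of log2(FPKM + 1), Cbx2-/- minus wild-type, with the SE of limma's fit. A difference passed when its limma p, adjusted over all 12006 tested genes, was under 0.05. Genes are said to rise or fall between the genotypes only where they passed. A library held 16140 to 16574 genes above 0. The correlation between libraries on the log2 scale was 0.946 to 0.987 within Cbx2-/-, 0.986 to 0.989 within wild-type and 0.91 to 0.953 between genotypes. Cbx2 itself, as the targeted gene, was at 1.95 ± 0.137 FPKM in Cbx2-/- and 3.16 ± 0.585 FPKM in wild-type marrow (SD, n = 3 each), a difference of -0.49 ± 0.15 with a limma adjusted p of 0.0558. Cbx2-/- replicate 3 differed from Cbx2-/- replicates 1 and 2 in haemoglobin, in transcript length and in muscle transcripts. Its haemoglobin transcripts made up 20.5% of summed FPKM, against 10.9% and 7.02% in the other Cbx2-/- libraries and 13.9% to 17.8% in wild-type libraries. Against the mean of Cbx2-/- replicates 1 and 2, its median log2 difference was -0.51 among the shortest of 5 length groups of transcripts and 0.23 among the longest. The summed FPKM of 10 muscle markers was 417 and 470.2 in Cbx2-/- replicates 1 and 2. It was 13.8 in Cbx2-/- replicate 3 and 23.3 to 34.9 in wild-type libraries, so here replicates 1 and 2 stood apart. The values without Cbx2-/- replicate 3 are given beside the cyclin results that it moves, a choice made after the data were seen. These values rest on Cbx2-/- replicates 1 and 2, with their high muscle markers.

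The cyclins of S phase, G2 and mitosis had lower values in every Cbx2-/- library than in any wild-type library, while the D-type cyclins overlapped between the genotypes. Ccne2, Ccna2 and Ccnf fell, by 2.62-fold, 2.13-fold and 2.01-fold in mean FPKM, and no cyclin passed as higher. Ccnd1 and Ccnd2 were 1.39-fold and 1.32-fold higher in mean FPKM in Cbx2-/- marrow but did not pass. Thus 3 of 9 cyclins passed as lower, where 8.31% of all tested genes did, and 0 of 9 passed as higher, where 8.8% of all tested genes did (limma; at an unadjusted p under 0.05 the count was also 0). In 6 of 9 cyclins, namely Ccne1, Ccne2, Ccna2, Ccnb1, Ccnb2 and Ccnf, every Cbx2-/- library was below every wild-type library, which held for 18.2% of tested genes. No cyclin had every Cbx2-/- library above every wild-type library, which held for 21.4% of tested genes. The median difference was -0.84 over the 9 cyclins and 0.02 over all tested genes. When Cbx2-/- replicate 3 was left out, 5 cyclins passed as lower (Ccne1, Ccne2, Ccna2, Ccnb2 and Ccnf) and 2 as higher (Ccnd1 and Ccnd2). In that fit 1719 of all 12006 tested genes passed as lower and 2069 as higher. The count of lower cyclins was also 5 without Cbx2-/- replicate 2, 1 without Cbx2-/- replicate 1 or wild-type replicate 3, and 0 without wild-type replicate 1 or 2. The count of lower genes over all tested genes, 998 with all libraries, moved in these fits too. It was 1080 without Cbx2-/- replicate 2, 551 without Cbx2-/- replicate 1 and 542 without wild-type replicate 3. Without wild-type replicate 1 it was 475, and without wild-type replicate 2 it was 478.

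**Figure D1:**
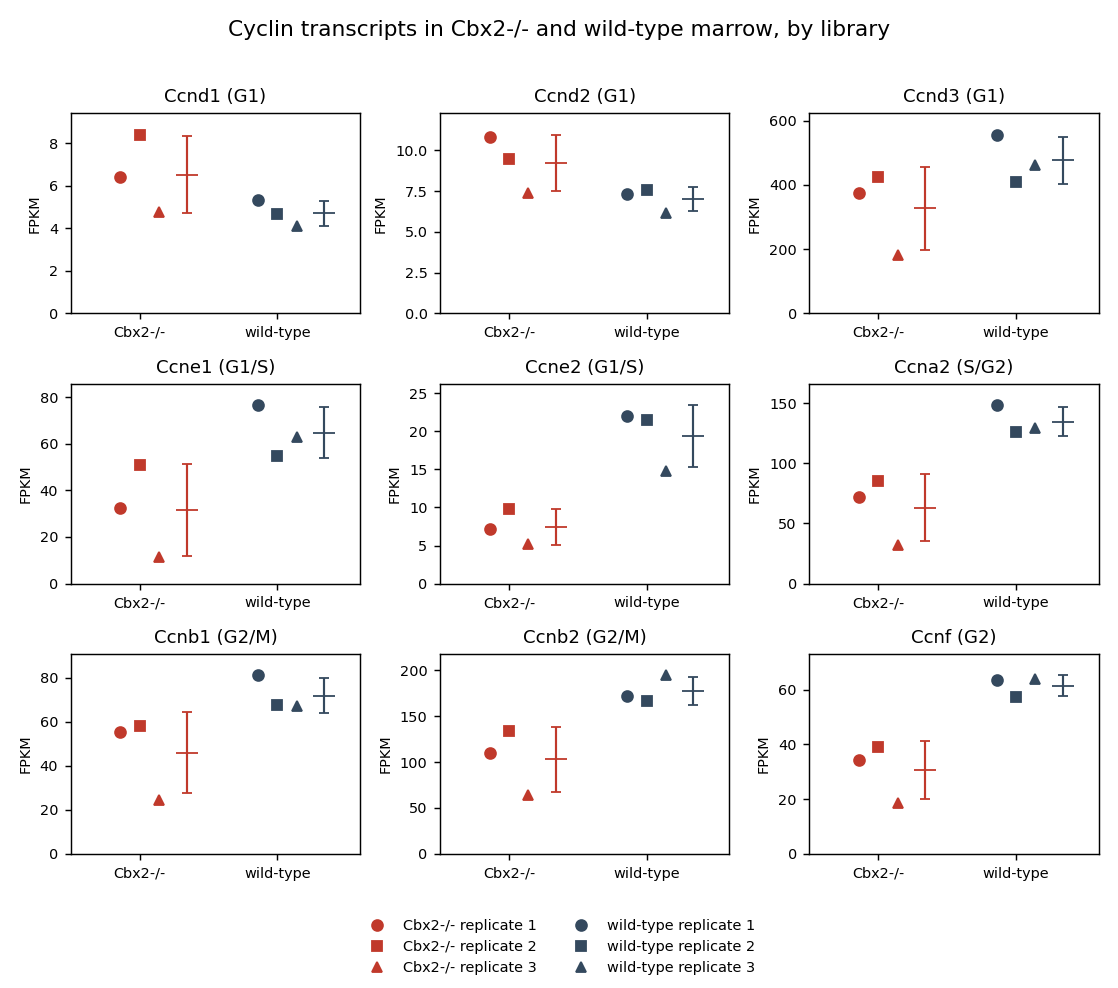
FPKM of each of the 9 cyclins (y axis, linear, from 0) in the 3 Cbx2-/- libraries and the 3 wild-type libraries, with the mean and SD of each group beside the points. Cbx2-/- points lie below all wild-type points for Ccne1, Ccne2, Ccna2, Ccnb1, Ccnb2 and Ccnf, and the triangle of Cbx2-/- replicate 3 is the lowest of its group in all 9 panels.

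Among the D-type cyclins, Ccnd3, the main D-type cyclin of blood cell precursors, made up nearly all of the transcript. Ccnd3 (chr17:47505051-47599691, plus strand, GRCm38) had 375, 423 and 180.03 FPKM in Cbx2-/- libraries and 556, 408 and 463 FPKM in wild-type libraries. Cbx2-/- replicates 1 and 3 were below all wild-type libraries, replicate 2 was not, and the groups overlapped. The difference was -0.62 ± 0.34 (95% interval -1.40 to 0.15, limma adjusted p = 0.243), and -0.24 without Cbx2-/- replicate 3 (adjusted p = 0.271).

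Ccnd1, widely expressed outside blood, and Ccnd2, a target of growth signals in many tissues, had low levels. Ccnd1 (chr7:144929931-144939925, minus strand) was at 6.41, 8.39 and 4.74 FPKM in Cbx2-/- libraries and 5.31, 4.65 and 4.12 FPKM in wild-type libraries. Ccnd2 (chr6:127125162-127152193, minus strand) was at 10.8, 9.47 and 7.40 FPKM in Cbx2-/- libraries and 7.31, 7.57 and 6.18 FPKM in wild-type libraries. For both genes Cbx2-/- replicates 1 and 2 were above all wild-type libraries and replicate 3 lay within their range. The differences were 0.38 ± 0.19 for Ccnd1 (95% interval -0.07 to 0.83, limma adjusted p = 0.226) and 0.34 ± 0.16 for Ccnd2 (-0.04 to 0.72, adjusted p = 0.192). They were 0.56 (adjusted p = 0.026) and 0.48 (adjusted p = 0.0261) without Cbx2-/- replicate 3, both past the threshold. With replicate 3 as the only Cbx2-/- library they were 0.02 and 0.07. Cbx2-/- replicates 1 and 2 had muscle marker sums above those of all wild-type libraries, and the part of this in Ccnd1 and Ccnd2 was not tested.

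The make-up of the D-type cyclins differed in all libraries in the same direction. Ccnd3 was 95.6%, 96.0% and 93.7% of the summed FPKM of the 3 D-type cyclins in Cbx2-/- libraries and 97.8%, 97.1% and 97.8% in wild-type libraries. Ccnd1 took 2.001 ± 0.427% in Cbx2-/- and 0.971 ± 0.122% in wild-type marrow (SD, n = 3 each). Ccnd2 took 2.92 ± 0.864% in Cbx2-/- and 1.46 ± 0.292% in wild-type marrow. The groups did not overlap for any of the 3 shares, and p was 0.1 for each by an exact permutation test (two-sided), which with 3 libraries a group goes no lower. The 3 shares add to the whole, so they are not independent of each other. Each single Cbx2-/- library lay outside the wild-type range for all 3 shares. The transcripts differ in length, at 2113 bases for Ccnd3, 3740 for Ccnd1 and 6330 for Ccnd2. The median log2 difference of Cbx2-/- replicate 3 in their length groups was -0.20, 0.04 and 0.23, and the shares given here are not corrected for it. Cbx2-/- replicates 1 and 2 had high muscle markers, whose part in the shares was not tested. The differences were 1.03, 1.46 and -2.49 percentage points for Ccnd1, Ccnd2 and Ccnd3, and 0.797, 0.989 and -1.79 without Cbx2-/- replicate 3.

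The E-type cyclins, partners of Cdk2 at the start of S phase, were lower in every Cbx2-/- library than in any wild-type library, and Ccne2 had the most negative difference of the 9 cyclins over all 6 libraries. Ccne2 (chr4:11191351-11204779, plus strand) had 7.21, 9.82 and 5.13 FPKM in Cbx2-/- libraries and 22.01, 21.4 and 14.7 FPKM in wild-type libraries, with a clear gap between the groups. It fell by 2.62-fold, a difference of -1.30 ± 0.24 (limma adjusted p = 0.0105), and the call was lost when wild-type replicate 1 or wild-type replicate 2 was left out (highest adjusted p = 0.0525). The difference was -1.09 without Cbx2-/- replicate 3 (adjusted p = 0.00513).

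Ccne1 (chr7:38097984-38107534, minus strand) had 32.6, 50.9 and 11.4 FPKM in Cbx2-/- libraries and 76.6, 54.7 and 62.9 FPKM in wild-type libraries. The groups did not overlap, but Cbx2-/- replicate 2 lay just under wild-type replicate 2, and Cbx2-/- replicate 3 was at 17.6% of the wild-type mean. The difference of -1.22 ± 0.47 (95% interval -2.30 to -0.15) did not pass over all 3 libraries (limma adjusted p = 0.112). It was -0.64 and passed without Cbx2-/- replicate 3 (adjusted p = 0.0476), and it also passed without Cbx2-/- replicate 2. The ratio of Ccne1 to Ccne2 was 3.98 ± 1.55 in Cbx2-/- and 3.44 ± 0.859 in wild-type marrow (SD, n = 3 each, exact permutation test, two-sided, p = 0.7), a difference of 0.543, and 1.42 without Cbx2-/- replicate 3.

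Ccna2, the cyclin of S phase and G2 that pairs with Cdk2 and then Cdk1, was the most abundant cyclin to pass. Ccna2 (chr3:36564865-36572150, minus strand) had 72.3, 85.1 and 32.0 FPKM in Cbx2-/- libraries and 148, 126 and 129.6 FPKM in wild-type libraries. All Cbx2-/- libraries were well below the wild-type range, at 53.7%, 63.2% and 23.7% of the wild-type mean. It fell by 2.13-fold, a difference of -1.19 ± 0.34 (limma adjusted p = 0.0493). The adjusted p is at the edge of the threshold: the call was kept in 11 of 20 alternative analyses, with a range of adjusted p over them of 0.000206 to 0.16. It was lost without Cbx2-/- replicate 1 and without each of the wild-type replicates 1, 2 and 3, and without Cbx2-/- replicate 3 the difference was -0.77 (adjusted p = 0.00397).

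The B-type cyclins, which carry Cdk1 into mitosis, were lower in every Cbx2-/- library than in any wild-type library, and neither passed over all 3 libraries. Ccnb1 (chr13:100778650-100786570, minus strand) had 55.3, 58.2 and 24.7 FPKM in Cbx2-/- libraries and 81.2, 67.5 and 67.1 FPKM in wild-type libraries. Its difference was -0.72 ± 0.32 (95% interval -1.45 to 0.01, limma adjusted p = 0.158), and -0.33 without Cbx2-/- replicate 3 (adjusted p = 0.0783). Ccnb2 (chr9:70407692-70421547, minus strand) had 110.2, 134 and 64.6 FPKM in Cbx2-/- libraries and 172, 166 and 194 FPKM in wild-type libraries. Its gap between the groups was wider than that of Ccnb1. Its difference was -0.84 ± 0.27 (95% interval -1.47 to -0.21, limma adjusted p = 0.0721), and it passed without Cbx2-/- replicate 3 (-0.54, adjusted p = 0.0193), without Cbx2-/- replicate 2 and with a correction for transcript length (-0.84, adjusted p = 0.0166).

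Ccnf, whose protein marks substrates for destruction in G2, fell to 34.3, 39.1 and 18.5 FPKM in Cbx2-/- libraries, against 63.3, 57.2 and 63.9 FPKM in wild-type libraries. It lies at chr17:24222198-24251484 on the minus strand. The wild-type libraries were close together and every Cbx2-/- library was far below them. The difference was -1.05 ± 0.27, or 2.01-fold (limma adjusted p = 0.0328), and -0.73 without Cbx2-/- replicate 3 (adjusted p = 0.00318). The call was lost without Cbx2-/- replicate 1 and without each of the wild-type replicates 1, 2 and 3 (highest adjusted p = 0.116). It was also lost with the chromosomal sex covariate, with the replicate block and with no filter on low values, and was kept in 13 of 20 alternatives.

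**Figure D2:**
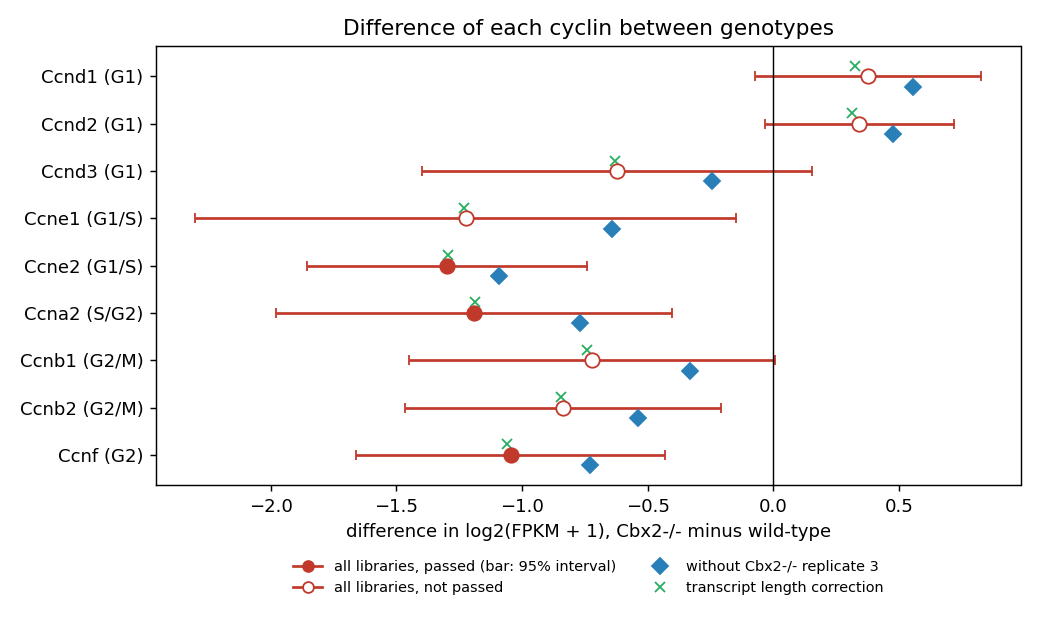
Difference between the genotypes for each cyclin, as log2(FPKM + 1), Cbx2-/- minus wild-type (x axis), with the 95% interval of limma's fit over all 6 libraries (filled circle, passed; open circle, not passed), the value without Cbx2-/- replicate 3 (diamond) and the value corrected for transcript length (cross). The intervals of Ccne1, Ccne2, Ccna2, Ccnb2 and Ccnf lie below 0, and Ccnd1 and Ccnd2 are the only cyclins to the right of 0.

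Promoters of the genes expressed late in the cell cycle are known to carry the CHR element, bound by the DREAM and B-Myb complexes, with CCAAT boxes bound by NF-Y upstream of it. The promoter windows of Ccnb2, Ccnf and Ccnb1 are shown as a description of sequence. Of these genes only Ccnf passed over all libraries, and a part of such elements in the differences was not tested. RefSeq windows of GRCm38.p6 were at hand for 5 of the 9 cyclins (Ccnb1, Ccnb2, Ccnf, Ccne1 and Ccnd3), and each window of 280 bases runs from 250 bases before the start to 30 bases after it. Capitals mark CHR letters and CCAAT boxes, and each sequence is given 5′ to 3′ on the minus strand, the gene's own: Ccnb2 at chr9:70421525-70421804, Ccnf at chr17:24251380-24251659 and Ccnb1 at chr13:100786457-100786736.
Ccnb2: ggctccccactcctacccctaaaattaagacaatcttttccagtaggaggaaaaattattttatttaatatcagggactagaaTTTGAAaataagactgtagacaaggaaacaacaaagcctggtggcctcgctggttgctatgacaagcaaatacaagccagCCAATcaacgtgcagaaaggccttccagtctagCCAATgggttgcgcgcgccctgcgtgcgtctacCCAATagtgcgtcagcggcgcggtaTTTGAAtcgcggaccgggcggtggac
Ccnf: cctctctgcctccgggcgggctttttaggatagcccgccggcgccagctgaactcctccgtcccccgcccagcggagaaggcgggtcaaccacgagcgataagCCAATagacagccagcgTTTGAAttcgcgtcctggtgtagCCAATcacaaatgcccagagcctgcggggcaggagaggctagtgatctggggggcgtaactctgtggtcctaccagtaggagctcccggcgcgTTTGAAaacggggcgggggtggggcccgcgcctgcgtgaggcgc
Ccnb1: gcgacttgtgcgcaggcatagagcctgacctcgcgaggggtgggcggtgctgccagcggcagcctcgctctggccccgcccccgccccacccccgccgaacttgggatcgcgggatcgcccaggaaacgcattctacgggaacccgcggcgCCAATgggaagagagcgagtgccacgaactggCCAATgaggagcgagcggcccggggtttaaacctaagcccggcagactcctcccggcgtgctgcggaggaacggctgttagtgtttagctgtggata

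The search took TTTGAA or TTCGAA as the CHR, CCAAT as the CCAAT box, TTTCCCGC, TTTCGCGC, TTTGCCGC or TTTGGCGC as an E2F site and CACGTG as an E-box, each on both strands. Ccnb2 held the CHR letters at 167 to 162 bases before its start and at 5 to 10 bases after it, with CCAAT boxes at 87 to 83, 54 to 50 and 21 to 17 bases before. Ccnf held the CHR letters at 130 to 125 and 14 to 9 bases before its start, with CCAAT boxes at 147 to 143 and 107 to 103 bases before. Ccnb1 held CCAAT boxes at 99 to 95 and 67 to 63 bases before its start. Neither TTTGAA nor TTCGAA was in this window, and other forms of the CHR were not searched for. Of 32541 RefSeq windows of this length, 18.3% held the CHR letters (2.32% at 2 or more places) and 36% a CCAAT box (11.1% at 2 or more places). The second of the Ccnd3 windows held 1 CCAAT box, at 108 to 104 bases before the start, while the first and the Ccne1 window held neither. No cyclin window held the E2F letters, found in 2.13% of windows, or the E-box, found in 6.81%. The E2F letters are a narrow pattern, and other forms of the site were not searched for, so these windows may hold them. A match of letters describes the sequence and does not show that a factor binds there.

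**Figure D3:**
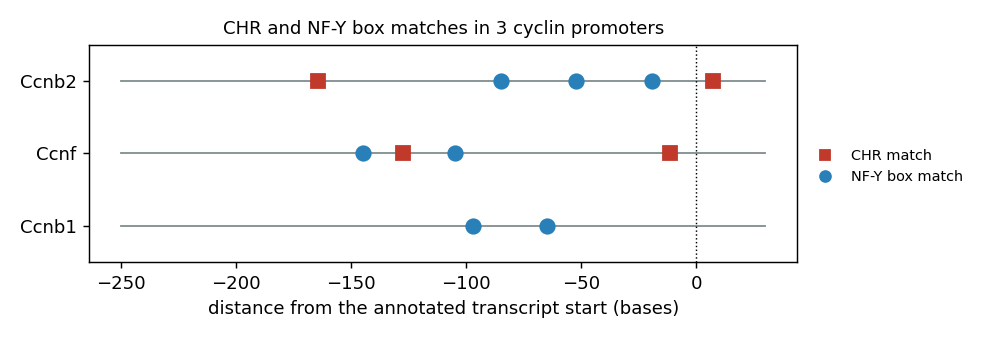
Places of CHR matches (squares) and of CCAAT boxes, the NF-Y box (circles), in the promoter windows of Ccnb2, Ccnf and Ccnb1, by distance from the transcript start in bases (x axis, negative before the start). Ccnb2 and Ccnf carry both kinds of match, and Ccnb1 carries 2 CCAAT boxes. A CHR match is TTTGAA or TTCGAA, and other forms of the CHR were not searched for.

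The order of the levels was nearly the same in both genotypes. In Cbx2-/- marrow it ran Ccnd3, Ccnb2, Ccna2, Ccnb1, Ccne1, Ccnf, Ccnd2, Ccne2 and Ccnd1, and the only neighbours whose ranges did not overlap were Ccnd3 over Ccnb2 and Ccnf over Ccnd2. In wild-type marrow it ran Ccnd3, Ccnb2, Ccna2, Ccnb1, Ccne1, Ccnf, Ccne2, Ccnd2 and Ccnd1, and the neighbours that overlapped were Ccnb1 with Ccne1 and Ccne1 with Ccnf. Compared within single libraries, Ccne1 was above Ccnf in 1 of the 3 Cbx2-/- libraries and Ccnd2 above Ccne2 in 2. Every other gene of the Cbx2-/- order was above the next in all 3 Cbx2-/- libraries. The means of Ccne2 and Ccnd2 changed places, although Ccnd2 was above Ccne2 in only 2 of the 3 Cbx2-/- libraries: Ccne2 averaged 7.39 FPKM in Cbx2-/- and 19.4 FPKM in wild-type marrow, and Ccnd2 averaged 9.23 FPKM in Cbx2-/- and 7.02 FPKM in wild-type marrow. The summed FPKM of the 9 cyclins was 704, 818 and 349 in Cbx2-/- libraries and 1132, 913 and 1006 in wild-type libraries, without overlap (exact permutation p = 0.1, two-sided), a difference of -393, and -256 without Cbx2-/- replicate 3. Ccnd3 made up 52.2 ± 0.912% of that sum in Cbx2-/- and 46.6 ± 2.25% in wild-type marrow (SD, n = 3 each).

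Ratios within a library are free of its scaling, and they were computed after the values of the genes had been seen. Ccna2 was low relative to Ccnb1 in Cbx2-/- marrow: the ratio was 1.31, 1.46 and 1.29 in Cbx2-/- libraries and 1.83, 1.86 and 1.93 in wild-type libraries. Against Cdk1, the kinase that both cyclins bind, Ccna2 stood at 1.29, 1.34 and 1.36 in Cbx2-/- libraries and 1.80, 1.71 and 1.80 in wild-type libraries. For both ratios the gap between the groups was several times the spread within them, and Cbx2-/- replicate 3 was no exception, and p was 0.1 by an exact permutation test (two-sided). The difference in the ratio of Ccna2 to Ccnb1 was -0.52, and -0.49 without Cbx2-/- replicate 3 and -0.50 with transcript length corrected for. The ratio of Ccnb1 to Cdk1 was 0.983 ± 0.0649 in Cbx2-/- and 0.946 ± 0.0346 in wild-type marrow (SD, n = 3 each, exact permutation p = 0.6), a difference of 0.0375, and 0.0059 without Cbx2-/- replicate 3. The ratio of Ccnb2 to Ccnb1 was 2.31 ± 0.312 in Cbx2-/- and 2.49 ± 0.39 in wild-type marrow (SD, n = 3 each, exact permutation p = 0.6), a difference of -0.18, and -0.34 without Cbx2-/- replicate 3. In all, 15 sums, shares and ratios were examined, and no adjusted p can be below 0.1 with 3 libraries a group.

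**Figure D4:**
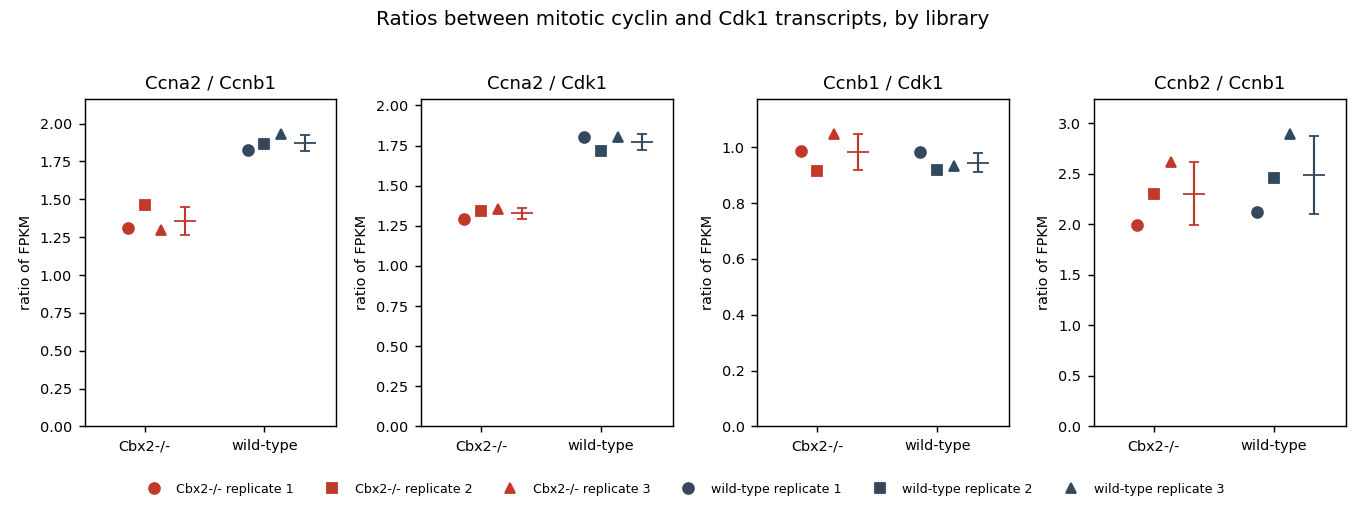
Ratios of FPKM within each library (y axis, no unit, from 0) of Ccna2 to Ccnb1, Ccna2 to Cdk1, Ccnb1 to Cdk1 and Ccnb2 to Ccnb1, Cbx2-/- libraries left of wild-type libraries, with the mean and SD of each group. Both ratios with Ccna2 on top separate the genotypes, at 1.29 to 1.46 in Cbx2-/- libraries and 1.71 to 1.93 in wild-type libraries, and the other ratios overlap.

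The kinase partners differed among themselves. Cdk1 was at 56.0, 63.4 and 23.6 FPKM in Cbx2-/- libraries and 82.4, 73.4 and 72.0 FPKM in wild-type libraries, without overlap, but did not pass (-0.78 ± 0.34, limma adjusted p = 0.161), also without Cbx2-/- replicate 3 (-0.34, adjusted p = 0.0632). Cdk2 was at 38.3 ± 5.94 FPKM in Cbx2-/- and 44.4 ± 3.17 FPKM in wild-type marrow (SD, n = 3 each, limma adjusted p = 0.408). Cdk1 and Cdk2 were named after their values were seen. Cdk4, the partner of D-type cyclins, was at 224, 218 and 77.9 FPKM in Cbx2-/- libraries and 203, 163 and 197 FPKM in wild-type libraries, with Cbx2-/- replicate 3 far below the other 5 (-0.25 ± 0.39, limma adjusted p = 0.714). Without that library the difference of Cdk4 turned to 0.24 (adjusted p = 0.198) and that of Cdk2 was -0.11 (adjusted p = 0.524). Cdk6, the other partner of D-type cyclins, rose to 4.10, 3.30 and 3.75 FPKM in Cbx2-/- libraries, against 2.35, 2.03 and 2.57 FPKM in wild-type libraries (0.51 ± 0.14, limma adjusted p = 0.0396), a call kept in 7 of 19 alternatives, among them the fit without Cbx2-/- replicate 3 (0.50, adjusted p = 0.0294), and lost without Cbx2-/- replicate 1 or any one wild-type library. Ccnd3 over Cdk4 was 1.98 ± 0.319 in Cbx2-/- and 2.53 ± 0.197 in wild-type marrow, and Ccne1 over Cdk2 was 0.786 ± 0.403 in Cbx2-/- and 1.45 ± 0.145 in wild-type marrow (SD, n = 3 each, both without overlap, exact permutation p = 0.1). The difference of Ccne1 over Cdk2 was -0.664, and -0.446 without Cbx2-/- replicate 3, and that of Ccnd3 over Cdk4 was -0.557, and -0.724 without it.

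Each cyclin was also set against the mean log2 level of other genes of its phase in the same library. Against 34 S phase genes, the log2 difference was -0.46 for Ccne1 (groups separate, exact permutation p = 0.1, two-sided) and -0.53 for Ccne2 (groups overlapping, exact permutation p = 0.2). Leaving out Cbx2-/- replicate 3 gave -0.28 for Ccne1 and -0.73 for Ccne2. Against 29 genes of G2 and M phase, it was -0.24 for Ccnf (groups separate, exact permutation p = 0.1) and -0.39 for Ccna2 (groups overlapping, exact permutation p = 0.2). Leaving out Cbx2-/- replicate 3 brought these to -0.14 for Ccnf and -0.18 for Ccna2. The values of Ccnb1 (0.08) and Ccnb2 (-0.03) were smaller than the spread between libraries (exact permutation p = 0.8 for both). For Ccnb1 the relative level was 1.04, 1.07 and 0.525 in Cbx2-/- libraries and 0.964, 0.765 and 0.657 in wild-type libraries, so Cbx2-/- replicates 1 and 2 were above all wild-type libraries and replicate 3 below them. Its difference was 0.26 without Cbx2-/- replicate 3, and that of Ccnb2 was 0.05. No exact permutation test of 3 against 3 libraries can pass a threshold of 0.05.

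Markers of several cell types moved with genotype beside the cyclins, where 8.8% of all tested genes passed as higher and 8.31% as lower. Of 17 erythroid markers, 14 passed as lower, and their summed FPKM was 1879 to 2375 in Cbx2-/- libraries and 4159 to 4916 in wild-type libraries. Of 13 early B cell markers, 12 passed as lower, with sums of 115 to 235 FPKM in Cbx2-/- libraries and 1040.4 to 1308 FPKM in wild-type libraries. None of these markers was at 0 in any library. Promyelocyte markers, of the dividing granulocyte precursors, passed as higher in 3 of 7, with sums of 2495 to 5200.2 FPKM in Cbx2-/- libraries and 2067 to 2280 FPKM in wild-type libraries. The lowest of the Cbx2-/- sums was that of replicate 3. The 3 calls were 6 without Cbx2-/- replicate 3, 1 without Cbx2-/- replicate 1, 2 without Cbx2-/- replicate 2 or wild-type replicate 1 and 0 without wild-type replicate 2 or 3. Over all tested genes, 2069 passed as higher without Cbx2-/- replicate 3, 543 without Cbx2-/- replicate 1 and 945 without Cbx2-/- replicate 2. Leaving out any one wild-type library gave 367 to 391 higher genes. The part of these cell types in the differences of the cyclins was not tested.

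Among the markers of the remaining cell types, maturing neutrophil markers passed as higher in 3 of 10. Their sums were 55238 to 84543 FPKM in Cbx2-/- libraries and 38174 to 43304 FPKM in wild-type libraries. These 3 calls were 10 without Cbx2-/- replicate 3, 4 without Cbx2-/- replicate 2, 1 without Cbx2-/- replicate 1, and 0 without any one wild-type library and with the replicate block. Macrophage markers passed as higher in 5 of 12 (sums of 1235 to 1553 FPKM in Cbx2-/- and 728 to 868 FPKM in wild-type libraries), and in 2 without wild-type replicate 1 or 3. Adipocyte markers passed as higher in 8 of 9 (2126 to 2744 FPKM in Cbx2-/- and 239 to 465 FPKM in wild-type libraries) and endothelial markers in 5 of 7 (141 to 184 FPKM in Cbx2-/- and 75.4 to 77.2 FPKM in wild-type libraries). Osteoblast markers passed as lower in 6 of 10, with sums of 1456 to 2658 FPKM in Cbx2-/- libraries and 7093 to 11421 FPKM in wild-type libraries. Col1a1 alone averaged 634 FPKM in Cbx2-/- and 6085 FPKM in wild-type marrow. Of the 10 differences, 9 were negative, and Spp1 went the other way without passing. It averaged 1001 FPKM in Cbx2-/- and 522 FPKM in wild-type marrow, with overlapping groups. Stem and progenitor cell markers passed as higher in 2 of 6 tested, with sums over the 7 listed of 38.6 to 58.0 FPKM in Cbx2-/- and 28.1 to 29.8 FPKM in wild-type libraries. None of the 6 tested T cell markers passed, with sums of 22.1 to 47.1 FPKM in Cbx2-/- and 22.3 to 33.99 FPKM in wild-type libraries. None of the 6 tested muscle markers passed over all libraries, and all 6 passed as higher without Cbx2-/- replicate 3. The sum of all 10 muscle markers was 417 and 470.2 FPKM in Cbx2-/- replicates 1 and 2, 13.8 FPKM in Cbx2-/- replicate 3, and 23.3 to 34.9 FPKM in wild-type libraries, with 4 of them at 0 in at least 1 library. FPKM is a share of all reads in a library, and the part of these cells in the cyclin values was not tested.

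The genes that surround the cyclins in the cell cycle were counted by role, 142 tested genes in 7 lists. Of these, 3 passed as higher and 32 as lower, where 8.8% and 8.31% of all tested genes did, and the median difference was -0.63, against 0.02 over all tested genes. When Cbx2-/- replicate 3 was left out, 3 passed as higher and 53 as lower, and the 32 became 9 without wild-type replicate 1, 10 without wild-type replicate 2 or 3 and 16 without Cbx2-/- replicate 1.

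Among 15 kinases and switches, 1 rose (Cdk6) and 1 fell, counts near the shares of all tested genes (8.8% higher and 8.31% lower). Cdc25b, the phosphatase that switches on Cdk1 early in mitosis, fell to 36.3, 51.1 and 41.4 FPKM in Cbx2-/- libraries, against 156, 139.6 and 141 FPKM in wild-type libraries (-1.75 ± 0.18, limma adjusted p = 0.00117). This 3.39-fold fall was larger than that of any of the 9 cyclins and passed in all 20 alternatives. Wee1, the kinase that holds Cdk1 inactive, was at 8.09 ± 1.71 FPKM in Cbx2-/- and 12.1 ± 1.06 FPKM in wild-type marrow (SD, n = 3 each, limma adjusted p = 0.0671). Cdc25c, another Cdk1 phosphatase (-0.67, adjusted p = 0.126), and Cks2, a small kinase subunit (-0.57, adjusted p = 0.235), did not pass either.

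Of 7 tested inhibitors of cyclin-dependent kinases, 1 rose and 2 fell, where 8.8% of all tested genes rose and 8.31% fell. The 2 falls were 5 without Cbx2-/- replicate 3 and 0 without Cbx2-/- replicate 1, without any one wild-type library and with the replicate block. Cdkn1c (p57), an imprinted inhibitor of G1 kinases, rose to 20.2 ± 0.668 FPKM in Cbx2-/- marrow, against 7.06 ± 1.05 FPKM in wild-type marrow (SD, n = 3 each, 1.40 ± 0.14, limma adjusted p = 0.00113). Cdkn2d (p19, adjusted p = 0.0401) and Cdkn2c (p18, adjusted p = 0.0418), which block Cdk4 and Cdk6, fell by 0.76 and 1.05 log2 units (-0.76 and -1.05). These calls were kept in 1 (Cdkn2d) and 2 (Cdkn2c) of the 6 fits that left out a library, and that of Cdkn1c in all 6. Cdkn3, a phosphatase acting on Cdk2 (-0.91, adjusted p = 0.0692), and Cdkn1b (p27; -0.74, adjusted p = 0.116) did not pass.

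Of 20 genes of the Rb, E2F, DREAM and mitotic transcription factors, which switch cyclin genes on and off, 0 rose and 5 fell (8.31% of all tested genes fell), and 15 were separate and lower (18.2% of all tested genes were). The 5 calls were 8 without Cbx2-/- replicate 3, 1 without Cbx2-/- replicate 1 or any one wild-type library, and 2 with the replicate block. The lowest adjusted p was that of Tfdp2, a dimer partner of E2F proteins, which fell to 12.3, 13.3 and 23.4 FPKM in Cbx2-/- libraries, against 41.8, 49.3 and 40.7 FPKM in wild-type libraries (-1.42 ± 0.24, limma adjusted p = 0.00784). E2f2, an activating E2F, fell to 67.8 ± 4.03 FPKM in Cbx2-/- marrow, against 117 ± 4.31 FPKM in wild-type marrow (SD, n = 3 each, limma adjusted p = 0.0117). Rb1, the repressor that D-type cyclin kinases inactivate (-0.78, adjusted p = 0.0255), and Foxm1, an activator of mitotic genes (-0.63, adjusted p = 0.0311), fell too. The calls of E2f2, Rb1 and Foxm1 were each kept in 2 of the 6 fits that left out a library. E2f4, the main E2F of the repressor complexes, did not pass (-0.75, adjusted p = 0.147), nor did Tfdp1, at 97.8 ± 21.4 FPKM in Cbx2-/- and 92.0 ± 15.3 FPKM in wild-type marrow (SD, n = 3 each, adjusted p = 0.861).

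Of 24 genes of cyclin ubiquitination, 0 rose and 4 fell, where 8.31% of all tested genes fell, and the 4 calls were 2 without any one wild-type library. Fzr1 (Cdh1), the activator of the anaphase-promoting complex in G1, fell to 75.8, 79.2 and 61.6 FPKM in Cbx2-/- libraries, against 172, 158 and 184 FPKM in wild-type libraries (-1.24 ± 0.17, limma adjusted p = 0.00371). Btrc, a substrate-binding part of an SCF ligase (-1.12, adjusted p = 0.00288), fell as well. Fbxo5 (Emi1), an inhibitor of the anaphase-promoting complex (-1.37, adjusted p = 0.0176), and Ube2s, its chain-extending enzyme (-1.22, adjusted p = 0.0275), fell too. Ube2c, its chain-starting enzyme, was at 249 ± 98.3 FPKM in Cbx2-/- and 498 ± 18.6 FPKM in wild-type marrow (SD, n = 3 each) and did not pass (adjusted p = 0.0536), nor did the subunit gene Anapc5 (-0.50, adjusted p = 0.232).

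The S phase and mitotic lists gave different counts at similar median differences. Of 34 S phase genes, 0 rose and 1 fell, where 8.31% of all tested genes fell. All 34 differences were negative, 19 were separate and lower (18.2% of all tested genes were) and the median was -0.72. The gene that passed was Slbp, which binds histone mRNA (78.7, 92.5 and 40.2 FPKM in Cbx2-/- libraries and 156, 166 and 152 FPKM in wild-type libraries, limma adjusted p = 0.0272). Pcna, the sliding clamp of replication, was at 241, 329 and 94.05 FPKM in Cbx2-/- libraries and 486, 428 and 401.5 FPKM in wild-type libraries, and did not pass (-1.16 ± 0.42, adjusted p = 0.1002). Its Cbx2-/- libraries were all below the wild-type libraries but far from each other. Rrm2, a ribonucleotide reductase subunit (-1.48, adjusted p = 0.0712), Pola1, a DNA polymerase subunit (-0.92, adjusted p = 0.0565), and Gins3, a helicase subunit (-0.72, adjusted p = 0.0746), did not pass. Of these 34 genes, 9 passed as lower without Cbx2-/- replicate 3, where 1719 of all tested genes did, and 12 without Cbx2-/- replicate 2 (1080 of all). With haemoglobin genes left out of the scaling the count was 12 (981 of all), and with the replicate block 2 (734 of all). With transcript length corrected for it was 6 (1255 of all). It was 0 without Cbx2-/- replicate 1 or any one wild-type library (475 to 551 of all). The mean log2(FPKM + 1) of the 34 genes was 5.33, 5.64 and 4.28 in Cbx2-/- libraries. In wild-type libraries it was 5.97, 5.71 and 5.86.

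Of 29 genes of G2 and M phase, 0 rose and 19 fell, all 29 differences were negative and 27 had separate groups, with a median of -0.78. Over all tested genes 8.31% passed as lower and 18.2% were separate and lower. Mki67, the proliferation antigen Ki-67, fell to 58.9, 59.3 and 59.2 FPKM in Cbx2-/- libraries, against 122, 116 and 131 FPKM in wild-type libraries (-1.05 ± 0.15, limma adjusted p = 0.00377). Its 3 Cbx2-/- values were almost equal, unlike those of the cyclins, whose lowest value was in replicate 3. Replicate 3 also shifted with transcript length, with a median log2 difference of -0.51 in the shortest group and 0.23 in the longest. The part of this shift in the contrast with Mki67 was not tested. Cenpf, a kinetochore protein (5.31 ± 0.233 FPKM in Cbx2-/- and 11.9 ± 1.11 FPKM in wild-type marrow, limma adjusted p = 0.00246), Ect2, a regulator of cytokinesis (-0.88, adjusted p = 0.00503), and Anln, a contractile ring protein (-0.80, adjusted p = 0.00635), fell too. Cenpa, the centromeric histone (-0.78, adjusted p = 0.163), and Cdca3, a mitotic entry factor (-0.89, adjusted p = 0.275), did not pass, and their groups overlapped. The 19 calls were 23 without Cbx2-/- replicate 3, 11 without Cbx2-/- replicate 1, 5 without wild-type replicate 1, 6 without wild-type replicate 2 or 3 and 10 with the replicate block. With transcript length corrected for they were 23, where 1255 of all tested genes passed as lower.

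Of 13 tested cyclins outside the core cycle, 1 rose and 0 fell, with a median difference of -0.08, and 1 of 13 is near the 8.8% of all tested genes that rose. Ccno, a cyclin known for the making of multiple cilia, rose to 8.50, 13.1 and 9.18 FPKM in Cbx2-/- libraries, against 4.59, 3.31 and 3.36 FPKM in wild-type libraries (1.23 ± 0.19, limma adjusted p = 0.00555). Ccni, among the most abundant of them, was at 66.6 ± 0.55 FPKM in Cbx2-/- and 68.6 ± 2.87 FPKM in wild-type marrow (SD, n = 3 each, limma adjusted p = 0.879). Ccnl2, a splicing-related cyclin, was at 40.1, 38.4 and 82.7 FPKM in Cbx2-/- libraries and 45.8, 52.9 and 51.7 FPKM in wild-type libraries (limma adjusted p = 0.986), with Cbx2-/- replicate 3 the highest. Ccnyl1 (0.52, adjusted p = 0.0859), Ccny (0.29, adjusted p = 0.167) and Ccng2 (-0.48, adjusted p = 0.161) did not pass.

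**Figure D5:**
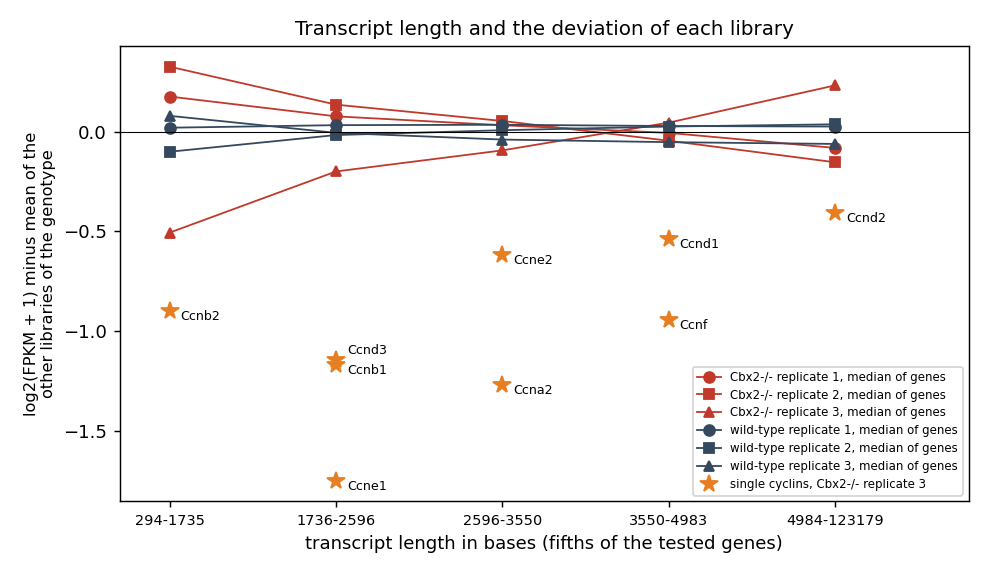
Median difference of each library from the mean of the other libraries of its genotype, in log2(FPKM + 1) (y axis), for 5 groups of tested genes ordered by transcript length in bases (x axis), with the value of each cyclin in Cbx2-/- replicate 3 as a star. The stars run from -1.75 (Ccne1) to -0.41 (Ccnd2), all below the line of Cbx2-/- replicate 3 in their length group.

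Cbx2-/- replicate 3 was the lowest of its group in all 9 cyclins, and transcript length moved with the values of this library. Its difference from Cbx2-/- replicates 1 and 2 had a Spearman rank correlation of 0.43 with transcript length across 11177 genes, which are not independent replicates. The same correlation was -0.27 for Cbx2-/- replicate 1, -0.44 for Cbx2-/- replicate 2 and -0.22 to 0.19 for the wild-type libraries. Each library was set against the other libraries of its genotype, so the Cbx2-/- correlations are not independent of each other. The log2 differences of Ccne1 (-1.75), Ccnb1 (-1.17) and Ccnd3 (-1.14) were below the median of their length group, -0.20, and those of Ccna2 (-1.27) and Ccne2 (-0.62) below that of theirs, -0.09. Between the genotypes, the difference had a rank correlation of 0.06 with length. With transcript length corrected for in every library, 4 cyclins passed as lower (Ccne2, Ccna2, Ccnb2 and Ccnf) and 0 as higher.

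The 3 genes most like each cyclin in their log2 level over the 6 libraries were taken from 8017 genes, by Pearson r and as a description. The points share the genotypes and the low values of Cbx2-/- replicate 3, and with 6 points many genes reach a high r. Ccnf was most like Kif18b (r = 0.9997), Glrx5 and Haus8, Ccna2 most like Orc1 (r = 0.999), Rad54l and Ifrd2, and Ccnb1 most like Aurkb (r = 0.999), Rad18 and Tarsl2. Ccnb2 was most like Fancl (r = 0.999), Kif22 and Birc5. Ccne2 was most like Lmo2 (r = 0.999), Tal1 and Med7, and Ccne1 most like Smim1 (r = 0.998), Polr2m and Samd14. Ccnd3 was most like Tubb4b (r = 0.997), Abhd17a and Ap2m1, Ccnd2 most like Sgpp1 (r = 0.997), Cdc42 and Ppp3r1, and Ccnd1 most like Ech1 (r = 0.989), Ankrd49 and Mlst8.

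The exons of 5 cyclins overlap those of genes on the opposite strand, and the sources used here do not give the strand setting of the counting, so reads of such stretches may be shared. Ccne2 shares 609 exonic bases with Ints8 (9.67 FPKM in Cbx2-/- and 12.3 FPKM in wild-type marrow) and Ccna2 shares 510 bases with Exosc9 (33.7 FPKM in Cbx2-/- and 49.0 FPKM in wild-type marrow). Ccnd3 shares 361 bases with Bysl, Ccnd1 shares 1100 bases with LTO1, and Ccnd2 shares 372 and 368 bases with 2 antisense transcripts. Ccne1, Ccnb1, Ccnb2 and Ccnf share no exonic bases with an antisense gene in GENCODE vM21. The gene positions given here are those of GENCODE, and some deposited loci run well beyond them. These are Ccne2 (chr4:11191350-11254259), Ccna2 (chr3:36552605-36571996), Ccnd2 (chr6:127125708-127212419) and Ccnd3 (chr17:47505050-47611492).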

How the data were processed

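The authors deposited a table of FPKM values for 22838 genes in 6 libraries, and FPKM are scaled to transcript length and mapped fragments. Per the labels' protocols, poly(A) RNA went into TruSeq Stranded libraries that were read from a single end on an Illumina HiSeq. Cufflinks 2.2.1, TopHat2 2.1.0 and FastQC 0.11.5 were used with the build mm10, per the submitters' processing notes, with roles and settings not named. The sources used here name no read totals, gene annotation or strand setting, so the depth behind a value is unknown and no counting interval is given. The replicates are separate mice, per the labels.

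Values as log2(FPKM + 1) were compared for genes that reached 1 FPKM in 3 or more libraries, by limma 3.58.1 (R 4.3.3; two-sided moderated test, variance trend on, no covariate) and with Benjamini-Hochberg adjustment over all 12006 genes. The fit was also run on simulated data with independent normal noise for each gene. The simulation held no outlying library and no shift with transcript length, so it does not bear on Cbx2-/- replicate 3. A log2 difference with a pseudocount of 1 understates changes of low genes, such as Ccnd1. Folds are ratios of mean FPKM, and a spread is an SD unless an SE is named. Exact permutation tests used scipy 1.17.1, figures matplotlib 3.10.9. Gene positions and transcript lengths come from GENCODE vM21, which uses mm10 (GRCm38), and promoter windows from RefSeq on GRCm38.p6.

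The members, lists and tests were chosen with earlier results of these data known. From each pathway list the 4 tested genes with the lowest adjusted p and the 2 with the highest mean FPKM that did not pass are named, and for each cyclin the 3 genes most like it with a mean of at least 5 FPKM. Other pseudocounts, filters, scalings and limma settings, a replicate block, a covariate from Xist (the labels do not give the sex) and each library left out were tried. The correction for transcript length (medians of 20 bins of length, 11177 genes) was added after the data were seen. Replicate numbers are shared by the genotypes, and the same-numbered libraries had correlations of their deviations of 0.194, -0.179 and -0.103, so the numbers were not taken as pairs.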

Additional observations from a re-analysis of the deposited data

How the results depend on the processing

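The 9 cyclins kept the sign of their difference in all 20 alternatives. The count of cyclins passing as lower, 3 over all libraries, was 1 with no filter on low values, 1 with the covariate for chromosomal sex, 7 with Cbx2-/- replicate 3 as the only Cbx2-/- library and 0 to 5 when a library was left out. The count passing as higher, 0 over all libraries, was 0 to 2 when a library was left out. With the replicate number as a block, whose pairing the libraries do not bear out, 1 cyclin and 18 pathway genes passed as lower, and 634 genes passed as higher and 734 as lower, against 1057 and 998. Leaving out haemoglobin genes from the scaling gave 608 higher genes and 53 lower pathway genes. Leaving out 1 library gave 367 to 2069 higher genes, 475 to 1719 lower genes and 9 to 53 lower pathway genes.

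Without Cbx2-/- replicates 1 and 2, where the spread of the lone library is assumed to be that of the wild-type libraries, 2047 genes passed as higher and 2714 as lower, with 6 higher and 103 lower pathway genes. The levels relative to the genes of the phase were then -0.82 for Ccne1, -0.14 for Ccne2, -0.81 for Ccna2, -0.27 for Ccnb1 and -0.45 for Ccnf, and the differences in the shares of D-type cyclins were 1.498, 2.39 and -3.89 percentage points for Ccnd1, Ccnd2 and Ccnd3. Cbx2 passed with quantile normalization (-0.52, limma adjusted p = 0.0461) and with the length correction (-0.54, adjusted p = 0.0305), and its difference was -0.56 to -0.37 when a library was left out, past the threshold without Cbx2-/- replicate 3. Signs turned in 4 genes that did not pass over all libraries. Cdk4 ran from -0.51 to 0.24, Tfdp1 from -0.061 to 0.27 and Ccnl2 from -0.34 to 0.20 when a library was left out. Tfdp1 was at -0.32 without Cbx2-/- replicates 1 and 2, Ccni at 0.066 with quantile normalization, and Ccnl2 at -0.0058 without haemoglobin genes in the scaling and -0.0091 with the length correction. The cause of these changes was not tested. With 3 libraries a group and unknown depth, a difference that did not pass is not shown to be absent.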
